A study of Rattus norvegicus with 6 samples.

Results

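The sympathetic and neuropeptide genes examined here comprised Th, Dbh, Ddc and Slc6a2 of the catecholamine pathway, the neuropeptide precursors Npy, Vip and Sst, and the granins Chga, Chgb and Scg2. They were chosen by gene symbol, and all 10 were present among the 17833 genes of the deposited expression table. Bulk RNA-seq had been performed on pulmonary veins (PVs) of wild type SD rats, with 3 rats in the bilateral PV banding (BPVB) group and 3 in the sham group. Both groups underwent thoracic surgery at postnatal day 1, but the veins were constricted in the BPVB group only, and PV tissue of the right upper lung lobe was taken at postnatal day 21. Banding narrows the veins of newborn rats and serves as a model of pediatric PV stenosis. The comparison asked how the transcriptome of the narrowed veins differs from that of veins that had been exposed but not narrowed. Levels were given as FPKM, the fragments assigned to a gene scaled by its length and by library depth, so that genes of different length can be set side by side.

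Sympathetic neurons make noradrenaline from tyrosine, store it in vesicles with peptides and granins, and take it back up after release. Their cell bodies lie mainly in ganglia of the sympathetic chain, and their axons follow the vessels of the heart and lungs. The roots of the PVs are also a known site of intrinsic cardiac ganglia, which hold mostly cholinergic neurons and smaller numbers of catecholaminergic cells.

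The 6 libraries held 23439506 to 23821184 counted fragments in the sham group and 26078189 to 29725808 in the BPVB group. Markers of the wall of the PVs were present, although atrial tissue would carry them too. The summed FPKM of 8 atrial cardiomyocyte markers was 14500 to 14900 in the BPVB group and 19100 to 19500 in the sham group, and PVs of rodents are known to carry a sleeve of cardiac muscle. The 6 smooth muscle markers summed to 5150 to 5190 and 5390 to 5430 FPKM in these groups, and the 6 endothelial markers to 951 to 966 and to 1060 FPKM. Markers of alveolar epithelium, which is no part of the vein wall, summed to 530 to 579 FPKM in the BPVB libraries and to 53.7 to 55.9 FPKM in the sham libraries. Differences were tested with limma on log2(FPKM + 0.5) over the 15150 genes with a mean of at least 0.1 FPKM over the libraries, with Benjamini-Hochberg adjustment over all of them. A change was called at an adjusted p under 0.05, and a gene was termed a differentially expressed gene (DEG) if its log2 fold change was also above 1 in size.

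Of the 10 genes, 9 passed the filter on low values and 5 of them changed. Th, Sst, Chgb and Scg2 were lower in the BPVB group, Slc6a2 was higher, and no change was called for Dbh, Ddc, Npy and Vip. Among all genes tested, 31.5% changed in either direction, 14.3% were lower and 17.2% were higher. Th, Chgb and Scg2 were DEGs with lower expression, as were 1.03% of all genes tested, and Slc6a2 was a DEG with higher expression, as were 2.24%. The groups did not overlap in 5 of the 9 genes tested, close to the 45.6% of all genes tested. For each of these 5 genes, an exact permutation test of the group means gave p = 0.1, the smallest that 3 libraries against 3 allow. The median log2 fold change of the 9 genes was -0.34, compared with 0.02 for all genes tested. These 9 genes are not a neutral set, because Th, Sst, Vip and Chgb were below 0.1 FPKM on average in the BPVB group and passed the filter through their level in the sham group. Expression was low for most of the genes, with 6 of the 10 below 1 FPKM on average in both groups. In bulk tissue, fewer cells of a type and less RNA per cell cannot be told apart.

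**Figure D1:**
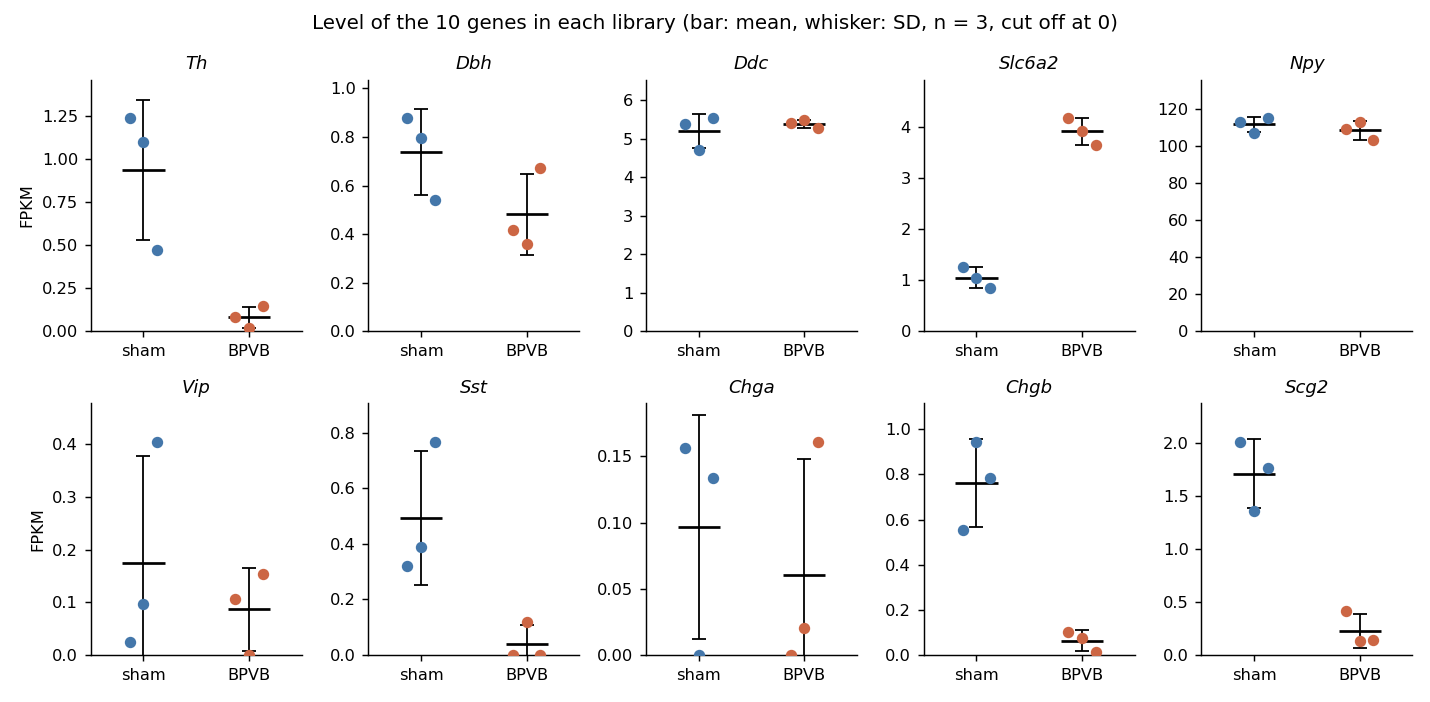
FPKM of each of the 10 genes in the 3 sham and 3 BPVB libraries (points), with the group mean (bar) and SD (whisker, cut off at 0), on a separate linear axis for each gene. The groups are apart in the panels of Th, Slc6a2, Sst, Chgb and Scg2 and overlap in those of Dbh, Ddc, Npy, Vip and Chga.

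Th encodes tyrosine hydroxylase, the rate-limiting enzyme of catecholamine synthesis. Th was 1.24, 1.1 and 0.472 FPKM in sham replicates 1 to 3 and 0.0803, 0.0205 and 0.144 FPKM in BPVB replicates 1 to 3. Every BPVB library was below every sham library, and sham replicate 3 was the lowest of its group. The mean was 0.937 ± 0.41 FPKM in the sham group and 0.0817 ± 0.062 FPKM in the BPVB group (SD, n = 3 each), an 11.5-fold lower level. On the log2(FPKM + 0.5) scale, which understates the change of low genes, the fold change was -1.27 (SE 0.23, 95% confidence interval -1.78 to -0.75, adjusted p = 0.0028). The values rested on few fragments, with 55, 48 and 21 in the sham libraries and 4, 1 and 8 in the BPVB libraries. By fragments and library totals the BPVB level was 0.0903 of the sham level, with an exact 95% interval of 0.0468 to 0.160 that covers counting error only.

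Dbh encodes dopamine β-hydroxylase, which turns dopamine into noradrenaline and marks noradrenergic cells. Dbh was 0.878, 0.796 and 0.541 FPKM in the sham libraries and 0.416, 0.358 and 0.672 FPKM in the BPVB libraries. BPVB replicate 3 lay above sham replicate 3, so that the groups overlapped. The mean was 0.738 ± 0.18 FPKM in the sham group and 0.482 ± 0.17 FPKM in the BPVB group (SD, n = 3 each). The log2 fold change of -0.34 had a 95% confidence interval of -0.73 to 0.06 and missed the threshold (SE 0.17, adjusted p = 0.18). This interval leaves room for a lower level as well as for no difference, at 118 fragments in the sham group and 91 in the BPVB group.

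The promoters of Th and Dbh are shown together with that of Scg2, a granin that also fell, and that of Npy, for which no change was called. They are the 250 bases before the RefSeq gene start in build GRCr8, written 5′ to 3′ on the strand of the gene. The windows of the genes were searched on both strands for the cyclic AMP response element (CRE) TGACGTCA, the site bound by CREB proteins, and for its core TGACG, which reads CGTCA on the other strand and lies inside each full CRE. Matches are in capitals.
Th (chr1:207508219-207508468, minus strand): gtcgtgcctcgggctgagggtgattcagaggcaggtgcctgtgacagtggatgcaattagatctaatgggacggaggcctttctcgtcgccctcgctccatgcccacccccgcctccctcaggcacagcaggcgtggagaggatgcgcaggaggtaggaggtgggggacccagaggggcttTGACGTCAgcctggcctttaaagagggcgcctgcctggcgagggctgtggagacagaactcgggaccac
Scg2 (chr9:88256867-88257116, minus strand): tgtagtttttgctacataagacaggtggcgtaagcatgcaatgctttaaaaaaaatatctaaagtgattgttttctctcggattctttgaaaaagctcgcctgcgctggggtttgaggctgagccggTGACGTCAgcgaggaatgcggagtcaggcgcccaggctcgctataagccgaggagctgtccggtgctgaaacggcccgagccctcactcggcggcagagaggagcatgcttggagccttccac
Dbh (chr3:30886078-30886327, plus strand): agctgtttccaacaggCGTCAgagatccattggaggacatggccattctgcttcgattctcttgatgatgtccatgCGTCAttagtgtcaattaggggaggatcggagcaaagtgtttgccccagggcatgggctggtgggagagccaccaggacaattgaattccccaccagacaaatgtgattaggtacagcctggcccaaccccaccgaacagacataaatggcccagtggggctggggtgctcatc
Npy (chr4:80211861-80212110, plus strand): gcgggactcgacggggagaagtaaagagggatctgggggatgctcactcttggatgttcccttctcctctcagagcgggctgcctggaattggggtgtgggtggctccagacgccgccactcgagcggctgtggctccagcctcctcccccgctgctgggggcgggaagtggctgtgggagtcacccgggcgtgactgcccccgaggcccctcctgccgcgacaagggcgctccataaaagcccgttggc
The full CRE starts 69 bases before the gene start of Th and 123 bases before that of Scg2. Dbh holds 2 copies of the core alone. Npy holds neither in this window, and nor does Chgb, which fell and is not shown.

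RefSeq promoters could be matched for 8 of the 10 genes, with 3 windows for Ddc and 1 for each of the others, whereas those of Chga and Slc6a2 were not analysed here. Within the 250 bases, the full CRE occurred in 2 of the 8 genes, Th and Scg2, and the core alone in Dbh and Vip. Among all 33469 promoter windows of this length, 1.59% held the full CRE and 18.2% held the core. These windows depend on the RefSeq start, as Sst shows, whose CRE is a classical binding site of CREB. With the 50 bases after the start included, a search added after the values were seen, Sst held a full CRE from base 3 of the gene, shown here with 10 bases on either side.
Sst (chr11:90461538-90461565, plus strand): cctccttggcTGACGTCAgagagagagt
In these windows of 300 bases, 3 of the 8 genes held the full CRE, 2 held the core alone (Dbh and Vip) and 3 held neither (Ddc, Npy and Chgb), while 1.83% of all windows of this length held the full CRE and 21.2% held the core. No match says only that these letters are absent from these windows. A match is a description of the sequence and was not linked to any measurement of binding.

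Ddc encodes aromatic L-amino acid decarboxylase, which makes dopamine and serotonin and is also present in many non-neuronal cells. Ddc was 5.37, 4.69 and 5.53 FPKM in the sham libraries and 5.4, 5.48 and 5.27 FPKM in the BPVB libraries. All BPVB values fell within the sham range. With 820 to 1168 fragments per library, the log2 fold change was 0.05 with a narrow 95% confidence interval of -0.15 to 0.25 (SE 0.087, adjusted p = 0.71).

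Slc6a2 encodes the noradrenaline transporter, which takes noradrenaline back into sympathetic terminals and is also known from the endothelium of lung vessels. Slc6a2 was 1.25, 1.04 and 0.845 FPKM in the sham libraries and 4.17, 3.92 and 3.64 FPKM in the BPVB libraries. Every BPVB library exceeded every sham library, and the libraries within a group were close to each other. The mean rose from 1.04 ± 0.20 to 3.91 ± 0.27 FPKM (SD, n = 3 each), a 3.74-fold higher level that rested on 124 to 183 fragments per sham library and 629 to 686 per BPVB library. The log2 fold change was 1.52 (SE 0.13, 95% confidence interval 1.23 to 1.81, adjusted p = 3.6e-05). Slc6a2 was the sole member of the 10 genes to rise.

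Ratios of FPKM within each library, which do not depend on the library total, restate the values above by pairs of genes and add no independent evidence of a direction. The ratio of Slc6a2 to Th was 0.947 to 1.79 in the sham libraries and 25.3 to 191 in the BPVB libraries. The ratio of Th to Dbh, the successive enzymes of noradrenaline synthesis, was 0.874 to 1.41 in the sham libraries and 0.0575 to 0.215 in the BPVB libraries. Dbh was thus the more abundant of the pair in every BPVB library and in sham replicate 3, while Th was the more abundant in sham replicates 1 and 2. The ratio of Slc6a2 to Dbh was 1.31 to 1.56 in the sham libraries and 5.42 to 11 in the BPVB libraries. The ratio of Ddc to Th was 4.28 to 11.7 and 36.5 to 267, and that of Npy to Th was 90.9 to 243 and 717 to 5480, in the sham and BPVB libraries respectively. None of these ratios overlapped between groups, which the values of the single genes fix for each of them, so that they are given as a description. The ratios of Npy to Dbh, of Ddc to Dbh and of Scg2 to Chgb overlapped between the groups. The 8 ratios share genes and are not independent of each other.

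**Figure D2:**
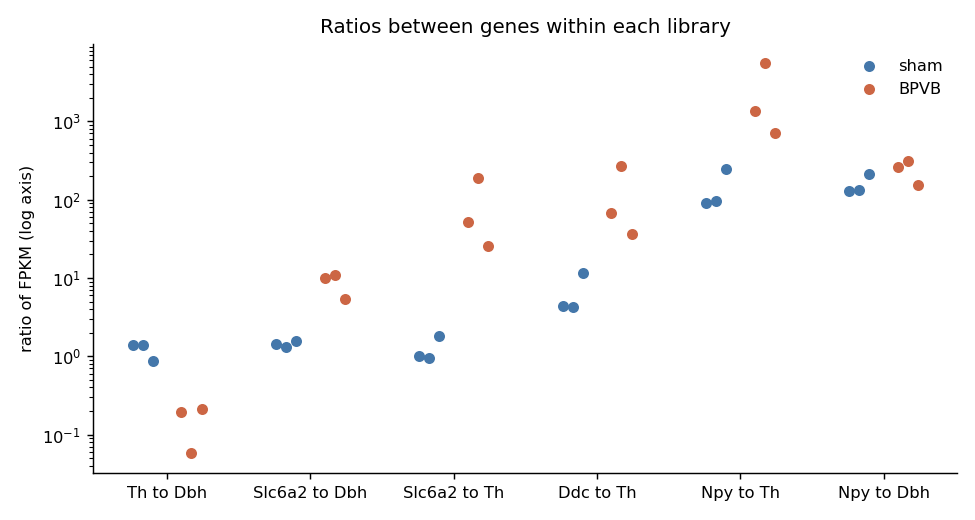
Ratio of the FPKM of a pair of genes within each library (points, log axis) for 6 of the 8 pairs, with 3 sham and 3 BPVB libraries per pair. Th to Dbh is lower in the BPVB libraries, at 0.0575 to 0.215 against 0.874 to 1.41, the ratios of Slc6a2, Ddc and Npy to Th and of Slc6a2 to Dbh are higher, and Npy to Dbh overlaps.

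Among the neuropeptides, Npy encodes neuropeptide Y, the co-transmitter of most vasoconstrictor sympathetic neurons. Npy was 113, 107 and 115 FPKM in the sham libraries and 109, 113 and 103 FPKM in the BPVB libraries. The groups overlapped, and the group means of 111 ± 4.3 and 108 ± 4.6 FPKM (SD, n = 3 each) differed by less than 1 SD. The log2 fold change was -0.04, with a 95% confidence interval of -0.14 to 0.05 (SE 0.042, adjusted p = 0.50). Npy was by far the most abundant of the 10 genes, at rank 668 of all 17833 genes in the sham group, and was counted with 1417 to 1744 fragments per library. The ratio of Npy to Dbh within a library was 128 to 213 in the sham group and 154 to 315 in the BPVB group, with overlap.

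Sst encodes somatostatin, an inhibitory peptide of endocrine cells and of some autonomic neurons. Sst was 0.320, 0.390 and 0.767 FPKM in the sham libraries and 0, 0.117 and 0 FPKM in the BPVB libraries. Every sham library was above every BPVB library, although the gene was counted with 5, 6 and 12 fragments in the sham libraries and with 2 fragments in the whole BPVB group. The log2 fold change was -0.86 (SE 0.20, 95% confidence interval -1.31 to -0.41, adjusted p = 0.010). By fragments and library totals the BPVB level was 0.0749 of the sham level, with an exact 95% interval of 0.00856 to 0.303 for counting error.

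Vip encodes vasoactive intestinal peptide, a vasodilator mostly found in parasympathetic neurons. Vip was 0.0239, 0.0969 and 0.405 FPKM in the sham libraries and 0.106, 0 and 0.153 FPKM in the BPVB libraries. The values overlapped, and the sham libraries themselves differed 17.0-fold, with 1, 4 and 17 fragments. The log2 fold change of -0.17 (SE 0.22, 95% confidence interval -0.68 to 0.34, adjusted p = 0.60) turned to 0.06 when sham replicate 3 was left out. A difference in Vip was not detectable at this depth.

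The granins are acidic proteins of dense-core vesicles, in which peptides and amines are stored, and are common to neurons and endocrine cells. Scg2, which encodes secretogranin II, was 2.01, 1.36 and 1.76 FPKM in the sham libraries and 0.411, 0.131 and 0.140 FPKM in the BPVB libraries. The groups were well apart, and BPVB replicate 1 was the highest of its group. The mean fell 7.52-fold, from 1.71 ± 0.33 to 0.227 ± 0.16 FPKM (SD, n = 3 each). With 321 fragments in the sham group and 49 in the BPVB group, the log2 fold change was -1.61 (SE 0.19, 95% confidence interval -2.04 to -1.18, adjusted p = 0.00024), the largest in size of the 9 genes tested on this scale.

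Chgb, which encodes chromogranin B, was 0.556, 0.945 and 0.783 FPKM in the sham libraries and 0.102, 0.0745 and 0.0131 FPKM in the BPVB libraries. The lowest sham library was above all BPVB libraries, which held 7, 5 and 1 fragments. The mean was 12.0-fold lower, at 0.0632 ± 0.046 against 0.761 ± 0.20 FPKM (SD, n = 3 each), with a log2 fold change of -1.15 (SE 0.16, 95% confidence interval -1.53 to -0.78, adjusted p = 0.00074). Chga, which encodes chromogranin A, the classical marker of chromaffin and neuroendocrine cells, did not pass the filter on low values. Chga was 0.156, 0 and 0.134 FPKM in the sham libraries and 0, 0.0204 and 0.161 FPKM in the BPVB libraries. The groups overlapped, with 10 fragments in the BPVB libraries and 13 in the sham libraries. Without the filter, the log2 fold change of Chga was -0.09 (adjusted p = 0.70), and a difference was not detectable at this depth.

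**Figure D3:**
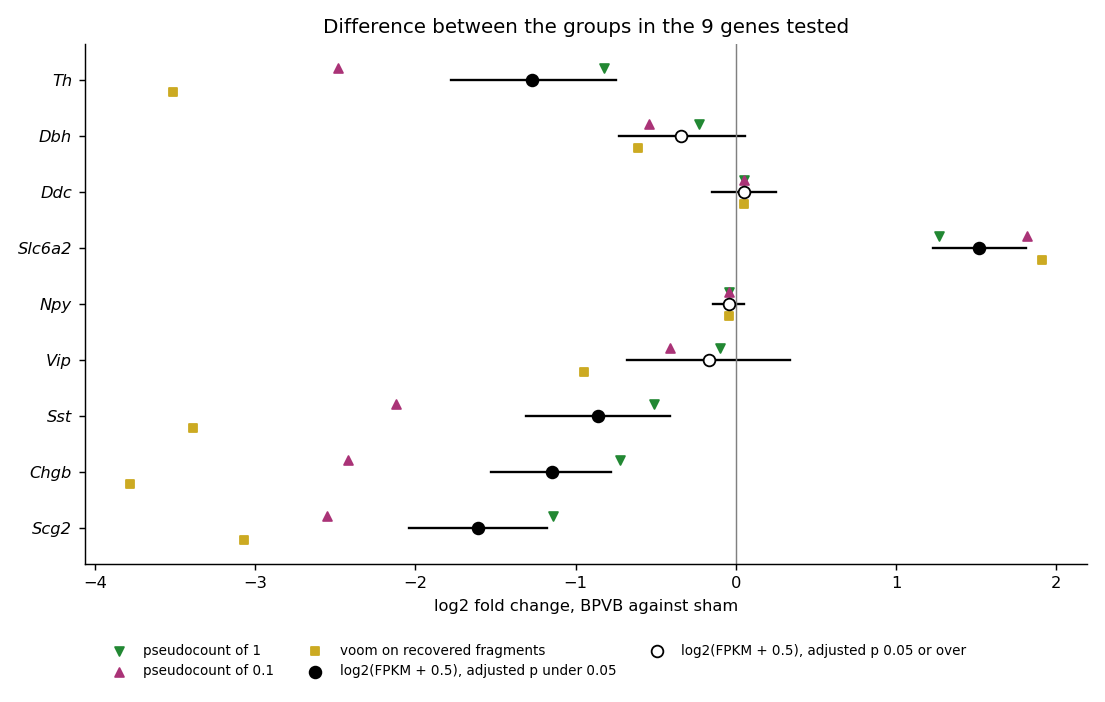
Log2 fold change of BPVB against sham for the 9 genes tested, with circles for limma on log2(FPKM + 0.5), lines for the 95% confidence interval, filled circles for an adjusted p under 0.05, triangles for pseudocounts of 1 and 0.1, and squares for the recovered fragments. Th, Sst, Chgb and Scg2 stay left of 0 and Slc6a2 right of 0 under every setting drawn, whereas the size of the change depends on the setting, as for Th, which runs from -0.82 to -3.51.

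The size of the fold change of the low genes depended on the pseudocount. Th had a log2 fold change of -0.82 with a pseudocount of 1 and of -2.48 with 0.1, Sst of -0.51 and -2.12, Chgb of -0.72 and -2.42, and Scg2 of -1.14 and -2.55. All 4 genes remained called with either pseudocount, and Sst became a DEG with a pseudocount of 0.1. With limma-voom on the recovered fragments, the values were -3.51 for Th, -3.39 for Sst, -3.78 for Chgb and -3.07 for Scg2, with adjusted p of 0.049 for Sst. Slc6a2, with more fragments, moved less, from 1.27 with a pseudocount of 1 to 1.91 with limma-voom.

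By mean FPKM in the sham group the genes ran in the order Npy, Ddc, Scg2, Slc6a2, Th, Chgb, Dbh, Sst, Vip and Chga. The libraries of neighbours in this order did not overlap for Npy and Ddc, for Ddc and Scg2 and for Scg2 and Slc6a2, and overlapped for all pairs from Slc6a2 down. In the BPVB group the order was Npy, Ddc, Slc6a2, Dbh, Scg2, Vip, Th, Chgb, Chga and Sst, and the neighbours overlapped from Dbh down. In the GO annotation that the deposited table carries, 6 of the 10 genes were listed under extracellular space (Dbh, Npy, Sst, Chga, Chgb and Scg2), a term of 1136 genes, and 5 under neuronal cell body (Th, Dbh, Ddc, Vip and Sst), a term of 603 genes. The genes listed under extracellular space included Npy, with no change called, and Scg2 and Chgb, which fell.

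Of the 11 other genes of catecholamine synthesis, storage and breakdown tested, 1 was higher, 3 were lower and 7 were not called, so that the share called was near the 31.5% of all genes, with a median log2 fold change of 0.04. Slc18a2, the vesicular monoamine transporter of neurons, was 0.646, 0.861 and 0.645 FPKM in the sham libraries and 0.312, 0.442 and 0.151 FPKM in the BPVB libraries. The groups did not overlap (log2 fold change -0.61, SE 0.17, adjusted p = 0.025), but the call was lost when any of 4 libraries was left out. Cyb561, which supplies electrons to Dbh inside the vesicles, was also lower, with means of 12.6 ± 0.51 FPKM in the sham group and 9.32 ± 0.67 FPKM in the BPVB group (SD, n = 3 each, log2 fold change -0.41, adjusted p = 0.0021). Maob, which breaks down monoamines, rose from 5.15 ± 0.81 to 8.90 ± 0.46 FPKM (log2 fold change 0.74, adjusted p = 0.00084).

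Of 9 transcription factors of sympathetic neurons, 6 were tested, of which 1 was higher and 2 were lower, beside 17.2% and 14.3% of all genes (median log2 fold change -0.06). Of the 2 lower genes, Phox2a passed the filter through the sham group alone. Phox2a, which directs the noradrenergic phenotype and activates Dbh, was 0.602, 0.982 and 1.15 FPKM in the sham libraries and was listed at 0 in every BPVB library. With a limit of 3 fragments for a count of 0 in each library, banding went with a level of Phox2a at least 13.4-fold lower. Its fitted log2 fold change depends on the pseudocount and is no bound (-1.48, SE 0.17, adjusted p = 0.00026). Isl1 was likewise listed at 0 in all BPVB libraries and did not pass the filter. Gata2, also an endothelial and mast cell factor, was slightly lower (log2 fold change -0.36, adjusted p = 0.0031), and Sox11, a factor of immature neurons, rose from 0.111 ± 0.073 to 0.819 ± 0.39 FPKM (SD, n = 3 each, log2 fold change 1.07, adjusted p = 0.0059).

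On the receiving side, of 9 adrenergic receptors tested, 2 were higher, 1 was lower and 6 were not called, so that the share called was again near the 31.5% of all genes, with a median log2 fold change of -0.01. Adrb3, the β3-adrenergic receptor of fat, rose from 0.112 ± 0.031 to 0.584 ± 0.24 FPKM (log2 fold change 0.80, adjusted p = 0.010), and Adra1b fell from 9.62 ± 0.90 to 7.47 ± 0.36 FPKM (log2 fold change -0.34, adjusted p = 0.013). Of 12 receptors for the 3 neuropeptides, 9 were matched by symbol in the table and 5 were tested, with a median log2 fold change of 0.16. Vipr1, a receptor for vasoactive intestinal peptide, was 1.08, 1.12 and 1.44 FPKM in the sham libraries and 3.19, 3.78 and 4.05 FPKM in the BPVB libraries, without overlap (log2 fold change 1.29, SE 0.13, adjusted p = 0.00011). Npy1r, the vascular receptor for neuropeptide Y, was lower (3.29 ± 0.44 against 2.34 ± 0.14 FPKM, log2 fold change -0.41, adjusted p = 0.027), but lost the call without any of 3 libraries and with the replicate block. The other 3 receptors tested were not called.

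Of 20 other neuropeptide precursors, 16 were matched and 11 tested, of which 4 were higher, 1 was lower and 6 were not called, beside 17.2% higher and 14.3% lower among all genes (median log2 fold change -0.19). Gal, which encodes galanin, a peptide of sympathetic and sensory neurons, was 1.38, 0.916 and 1.26 FPKM in the sham libraries and 4.40, 3.62 and 3.37 FPKM in the BPVB libraries, without overlap (log2 fold change 1.35, SE 0.15, adjusted p = 0.00016). Galanin precursor mRNA thus rose in the same libraries in which Sst fell. Pnoc, the precursor of nociceptin, rose from 0.191 ± 0.12 to 1.51 ± 0.42 FPKM (log2 fold change 1.53, adjusted p = 0.00044). Nts, the precursor of neurotensin, had a log2 fold change of 1.11 (adjusted p = 0.028), a call that was lost without any of 4 libraries and without the filter on low values. The gene that was lower was Cartpt, with 6, 28 and 11 fragments in the sham libraries and a value of 0 in all BPVB libraries. By the limit of 3 fragments per library it was at least 5.81-fold lower, or at least 3.26-fold without sham replicate 2. Of the 11 precursors tested, 4 passed the filter through the sham group alone, Cartpt among them, and the median turned to 0.96 with a filter at 1 FPKM and to 0.05 without sham replicate 1.

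The machinery of dense-core vesicles and prohormone processing, which handles the granins and neuropeptides, was represented by 19 genes. Of the 18 tested, 3 were higher, 5 were lower and 10 were not called, beside 17.2% higher and 14.3% lower among all genes, with a median log2 fold change of -0.26. Vgf, which was not called, and Syt4, 1 of the 5 lower genes, passed the filter through the sham group alone. Scg3, which encodes the granin-binding protein secretogranin III, was 2.35, 1.93 and 2.51 FPKM in the sham libraries and 0.524, 0.537 and 0.628 FPKM in the BPVB libraries. It fell without overlap between the groups, as did Chgb and Scg2 (log2 fold change -1.37, SE 0.13, adjusted p = 7.5e-05). Syt4, a synaptotagmin of dense-core vesicles, fell from 0.835 ± 0.26 to 0.0680 ± 0.056 FPKM (log2 fold change -1.22, adjusted p = 0.00076). Pcsk1, which encodes the prohormone convertase that cleaves peptide precursors, instead rose, from 0.187 ± 0.019 to 1.38 ± 0.33 FPKM (SD, n = 3 each, log2 fold change 1.44, adjusted p = 0.00018).

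**Figure D4:**
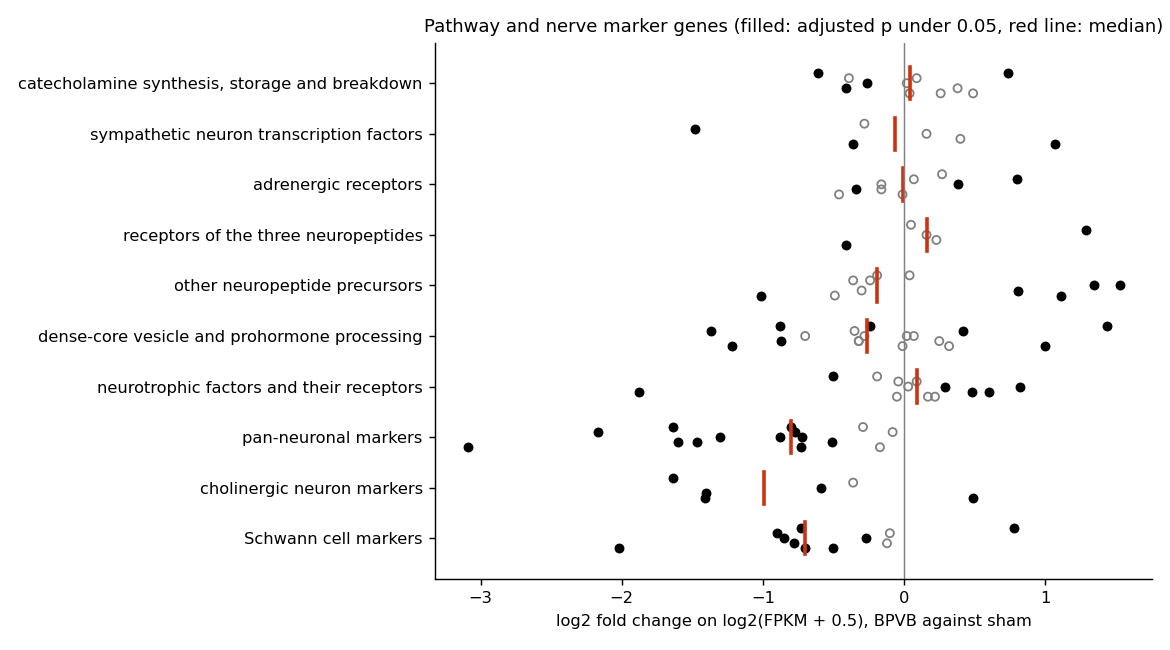
Log2 fold change on log2(FPKM + 0.5), BPVB against sham, of the genes that passed the filter (5 of the 6 cholinergic genes through the sham group alone) of the 7 pathway lists and of the pan-neuronal, cholinergic and Schwann cell marker lists (points, filled for an adjusted p under 0.05), with the list median as a red line. The medians of the pathway lists lie between -0.26 and 0.16, and those of the pan-neuronal, cholinergic and Schwann cell markers at -0.80, -0.99 and -0.70.

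Markers of neurons and of their sheath moved with Th, Sst, Chgb and Scg2. For comparison with the counts of these 3 marker lists, 14.3% of all genes tested were lower. Of 15 pan-neuronal markers tested, 12 were lower, 0 were higher and 3 were not called, with a median log2 fold change of -0.80, and their summed level was 56.4 to 59.9 FPKM in the sham libraries and 23.6 to 29.1 FPKM in the BPVB libraries. Nefl, the light neurofilament, fell from 6.74 ± 0.63 to 0.358 ± 0.15 FPKM (log2 fold change -3.09, adjusted p = 1.2e-06), Tubb3 from 7.20 ± 0.72 to 1.24 ± 0.39 FPKM (log2 fold change -2.17, adjusted p = 2.5e-05) and Snap25 from 3.80 ± 0.76 to 0.867 ± 0.089 FPKM (log2 fold change -1.64, adjusted p = 5.4e-05). The 8 cholinergic neuron markers had a summed level of 4.88 to 6.08 FPKM in the sham libraries and of 3.00 to 3.10 FPKM in the BPVB libraries. Of the 6 tested, 4 were lower and 1 was higher, with a median log2 fold change of -0.99, or -1.0 with the genes at 0 set to their bound, and of 0.49 with a filter at 1 FPKM. The higher gene was Ache, which encodes acetylcholinesterase and made up 2.86 to 3.08 FPKM of the sum in the BPVB libraries. All 4 of the lower genes passed the filter through the sham group alone, so that this count and median describe genes that had to differ. The same holds for 2 of the 12 pan-neuronal markers that were lower. Chat, Slc18a3, Chrna3 and Chrnb4, which define cholinergic and autonomic ganglion neurons, were at 0 in all BPVB libraries. Of these, Chat and Chrnb4 did not pass the filter, with 17, 22 and 6 and with 1, 8 and 11 fragments in the sham libraries. By the limit of 3 fragments per library, Slc18a3, which loads acetylcholine into vesicles, was lower by at least 27.9-fold and Chrna3, the ganglionic nicotinic receptor subunit, by at least 11.6-fold. Slc5a7, the choline transporter of these neurons, was lower as well (log2 fold change -1.41, adjusted p = 0.00011). Among 11 Schwann cell markers 8 were lower and 1 was higher (median log2 fold change -0.70, summed level 232 to 238 against 148 to 150 FPKM), including Mag (log2 fold change -0.90, adjusted p = 0.015, lost without any of 3 libraries) and Foxd3 (log2 fold change -0.85, adjusted p = 0.0094). The part of these cells in the changes of Th, Sst, Chgb and Scg2 was not tested. In the same libraries Slc6a2 rose, and no change was called for Npy and Ddc.

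Other cells that can hold granins or peptides were also checked, again beside 17.2% higher and 14.3% lower among all genes tested. Of 6 matched markers of pulmonary neuroendocrine cells, 2 were tested and both were lower, Syp (log2 fold change -1.60, adjusted p = 0.0011) and Uchl1 (log2 fold change -0.80, adjusted p = 0.00030), which are also pan-neuronal markers. Their summed level was 10.6 to 12.6 FPKM in the sham libraries and 4.50 to 5.65 FPKM in the BPVB libraries, with Neurod1 at 0 in the BPVB group and Nkx2-2 at 0 in the sham group. The 3 chromaffin cell markers summed to 3.71 to 4.27 FPKM in the sham libraries and to 6.0 to 7.45 FPKM in the BPVB libraries, with 1 higher, Penk (log2 fold change 0.81, adjusted p = 0.0014), which other cells also express, and 2 not called (median log2 fold change 0.49). The part of these cells was not tested.

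Several non-neuronal marker lists moved with the rise of Slc6a2. The counts below stand beside 17.2% higher and 14.3% lower among all genes tested. All 8 alveolar epithelial markers were higher, with a median log2 fold change of 2.68, led by Sftpc (3.40), Sftpb (3.31) and Sftpa1 (3.09). Of 8 mast cell markers, 4 were higher and 4 were not called, with a median of 0.86 and sums of 14.9 to 16.2 against 24 to 28 FPKM, led by Tpsab1 (1.21), Cpa3 (1.16) and Cma1 (1.07). Of 6 adipocyte markers, 3 were higher, 1 was lower and 2 were not called, with a median of 0.69 and sums of 18.8 to 24.9 against 36.7 to 39.2 FPKM, led by Plin1 (1.83), Adipoq (1.53) and Cidec (1.29). The endothelial markers, in contrast, did not rise with Slc6a2, since 4 of 6 were lower, 0 were higher and 2 were not called (median -0.15), including Cdh5 (-0.34), Tie1 (-0.23) and Pecam1 (-0.17). Atrial cardiomyocyte markers were lower in 6 of 8 and higher in 2 (median -0.26), with Myl7 at -0.59 (not called after quantile normalization), Tnnt2 at -0.36 and Ryr2 at 0.38. Smooth muscle markers were lower in 4 of 6, higher in 1 and not called in 1 (median -0.10), with Myh11 at -0.30, Acta2 at -0.18 and Des at 0.41. None of 5 lymphocyte markers was called (median 0.07, sums of 1.93 to 3.12 against 2.49 to 2.69 FPKM). The part of these cells in the rise of Slc6a2 was not tested.

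For Slc6a2, Sst and Scg2, which had the largest change of their role on the log2(FPKM + 0.5) scale, the genes with the most similar profile over the 6 libraries were looked up among 12154 other genes with a mean of at least 1 FPKM. Likeness was the Euclidean distance between profiles of log2(FPKM + 0.5), each centred on its own mean. The nearest genes to Slc6a2 were Slc6a6, the taurine transporter (distance 0.242), Slc41a3 (0.245) and Chrdl1 (0.255). Slc6a6 was 4.45 ± 0.18 FPKM in the sham group and 14.1 ± 0.18 FPKM in the BPVB group (SD, n = 3 each). The nearest genes to Sst were LOC102549052 (0.270), Smim4 (0.287) and Gstm1 (0.356), and those to Scg2 were Sec14l5 (0.267), Nxpe1 (0.391) and Bhlhe41 (0.464). The neighbours of Sst fell by smaller folds of mean FPKM than Sst, which was 12.65-fold lower. Smim4 fell from 26.6 to 14.8 FPKM, Gstm1 from 39.7 to 23.6 FPKM and LOC102549052 from 1.62 to 0.800 FPKM. The pseudocount shrinks the change of Sst more than that of genes at higher levels. Sec14l5 fell from 2.72 ± 0.35 to 0.532 ± 0.20 FPKM (SD, n = 3 each). By mean FPKM and by limma-voom, Th and Chgb changed more than Slc6a2 and Scg2, with 11.5-fold and 12.0-fold lower mean FPKM. With a pseudocount of 0.1, Scg2 (-2.55) changed more than Th (-2.48) and Chgb (-2.42). The nearest genes to Th and Chgb were not looked up. The genes above were picked for their similarity, so their own differences are given as a description.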

How the data were processed

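Total RNA of PV tissue from 3 BPVB and 3 sham rats was sequenced in bulk. The authors deposited FPKM per gene and rat. By the paper, reads were mapped with HISAT and counted with HTSeq-count, while the submitters' processing notes list HISAT2 2.0.5, StringTie 1.3.3b, featureCounts 1.5.0-p3 and DESeq2 1.20.0. The library kit also differs between the paper (VAHTS) and the sample labels (NEBNext). The genome build, the annotation and the strand setting are not given in the sources used here, so that reads of overlapping genes on opposite strands may not be told apart. Table columns were matched to samples by the letter and number of their titles, and 0 columns with values of a sample remained without use.

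FPKM were tested on log2(FPKM + 0.5) with limma 3.58.1 in R 4.3.3 (lmFit, eBayes with trend), two-sided, over 15150 genes that averaged 0.1 FPKM or more, with Benjamini-Hochberg adjustment. The pseudocount shrinks the fold change of low genes. The DEG thresholds, those of the paper's methods, were 0.05 for the adjusted p and 1 for the size of the log2 fold change. On simulated data for this comparison with 15170 genes, 88 of 100 genes changed 2-fold and 99 of 100 changed 4-fold were called, as were 20 unchanged genes. The simulation gave every gene the same dispersion and drew the changed genes from all levels past the filter. Its rates therefore do not describe genes as low and variable as Th, Sst or Vip. Fragments per gene were recovered from the steps of the FPKM values for 17832 of 17833 genes. For low genes they are the smallest whole numbers that the values allow, and intervals from them cover counting error only. Levels were also compared by two-sided exact permutation tests, and ratios within libraries were given as descriptions.

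The genes, the 7 pathway lists and the 12 marker lists were chosen with earlier results of these data known. All 10 genes are named, with up to 3 called genes of each list by size of change, markers listed at 0, and the 3 genes nearest in profile to the gene of each role with the largest change on the log2(FPKM + 0.5) scale. Some genes that met this rule are not reported here, although list counts include them. Cartpt and Ache were named after their values were seen. The study's methods describe 3 rats per group for RNA-seq, and p-values measure the spread between these rats. Promoters came from RefSeq (GRCr8), and protein sequences were not used here. The 16 alternatives comprised 2 pseudocounts, 2 filters, 3 scalings, a replicate block, limma-voom on fragments, robust eBayes and leaving out each library. Counts, ratios and plots were made in Python 3.11.15 (numpy 2.4.6, pandas 2.3.3, scipy 1.17.1, matplotlib 3.10.9).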

Additional observations from a re-analysis of the deposited data

How the results depend on the processing

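The calls and directions of Th, Slc6a2, Sst, Chgb and Scg2 were kept in each of the 16 alternatives in which they were tested. With a filter at a mean of 1 FPKM, Ddc, Slc6a2 and Npy alone were tested, so that 1 of the genes changed, 0 were lower and 1 was a DEG. With a pseudocount of 1, 2 of the genes were DEGs. Among all genes, the number of DEGs was 496, compared with 325 with a pseudocount of 1, 901 with a pseudocount of 0.1 and 1122 with limma-voom on the recovered fragments. Leaving out each library in turn gave log2 fold changes of -0.02 to 0.09 for Ddc, negative without sham replicate 2, and of -0.33 to 0.06 for Vip, neither of which was called. The cause of these shifts was not tested, except that fewer genes are tested with the stricter filter. Of 59 other genes selected from the lists and by profile, 7 lost their call in at least 1 alternative and 0 changed sign. The median log2 fold change of all genes moved by less than 0.1 between scalings. Of 19 list medians, 14 moved by more than the median SE of their genes in at least 1 alternative, and 5 changed sign in at least 1. The median of the cholinergic markers ranged from -4.87 to 0.49, that of the other neuropeptide precursors from -0.47 to 0.96, that of the lymphocyte markers from -0.06 to 0.20, that of the sympathetic transcription factors from -0.12 to 0.04 and that of the adrenergic receptors from -0.09 to 0.03. With the replicate block, 5 of the 10 genes were called and 4539 of all genes, compared with 4775 without it. Samples with the same number did not deviate together (correlations of 0.025, 0.014 and 0.015), so that the numbers were not taken as pairs. Depth limits the values of Th, Dbh, Sst, Vip, Chga and Chgb, whose group means were all under 1 FPKM.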

Other observations

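Neurotrophic factors and their receptors maintain autonomic neurons. Of 15 genes, 14 were matched by symbol and 13 tested, of which 4 were higher, 2 were lower and 7 were not called, with a median log2 fold change of 0.09. All genes tested were higher in 17.2% and lower in 14.3%. Ret, the signalling receptor of the GDNF family, was 3.25, 3.67 and 3.09 FPKM in the sham libraries and 0.320, 0.600 and 0.754 FPKM in the BPVB libraries. The groups were far apart (log2 fold change -1.88, SE 0.17, adjusted p = 5.1e-05). Gfra1, which encodes the co-receptor that presents GDNF to Ret, instead rose from 2.53 ± 0.19 to 4.83 ± 0.40 FPKM (SD, n = 3 each, log2 fold change 0.82, adjusted p = 0.00037). Bdnf, which encodes a neurotrophin made by target tissues as well as by neurons, rose from 3.27 ± 0.27 to 5.21 ± 0.39 FPKM (log2 fold change 0.60, adjusted p = 0.0018).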
